A study of Macaca mulatta with 10 samples.

Results

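The 10 genes described here are immediate early and AP-1 genes, called immediate early genes below for short. Among them are the FOS and JUN genes, whose proteins form the transcription factor AP-1. They were chosen by symbol, as FOS, FOSB, JUN, JUNB, JUND, EGR1, NR4A1, NR4A2, DUSP1 and ZFP36, and all 10 were found among the 26484 genes of the count table. RNA came from flow-sorted type 1 regulatory (Tr1) cells, CD4 T cells gated on CD49b and LAG-3, from the blood of 5 Cohort B and 5 Cohort C rhesus macaques, with 1 library per monkey. Both cohorts had been made diabetic and carried an islet allograft. Donor and recipient shared 1 MHC class II DRB allele and differed in MHC class I. Both cohorts were given rapamycin, soluble TNF receptor and antibodies against CD40 and the IL-6 receptor for a short time. Cohort C monkeys were in addition infused with apoptotic donor leukocytes (ADLs), and Cohort B monkeys were not. Ages of single monkeys are not in the labels. By the labels, blood was taken at sacrifice, after rejection in Cohort B and at the study's end in Cohort C, although the study's records show no rejection for 13EP12 and 13EP8 of Cohort B and a longer follow-up of Cohort C monkey 15CP1.

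Immediate early genes are switched on within minutes of a stimulus, without new protein synthesis, by kinase cascades that act on factors already present in the cell. In T cells they respond to the T cell receptor (TCR), and handling of cells, such as thawing, dissociation and sorting, is known to induce them as well. Every library here came from cells that had been frozen, thawed, rested overnight and then sorted. No fresh, unsorted or freshly stimulated sample was analysed here, so signaling in the animal and handling cannot be told apart. In bulk RNA, fewer expressing cells and less RNA per cell cannot be told apart either.

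Libraries differed widely in depth and in genes with a count. Total counts ran from 6076 to 1392157 in Cohort B and from 66485 to 5895609 in Cohort C, and genes with a count from 465 to 10225 and from 891 to 15068. The count table did not bear out the sort markers in every library: CD4 had counts in 6 libraries, ITGA2 (CD49b) in 4 and LAG3 in 3, and none of these 3 genes had a count in monkeys 14HP26, 14HP31, 14HP33 and 15CP4. Counts on 10 T cell genes summed to 0 in 14HP31, 11 in 15CP4, 16 in 14HP33, 55 in 14HP24 and 57 in 14HP26, beside 466 to 10849 in the other 5 libraries. The pseudogene-like MTRNR2L1, one of a family of near-identical copies with uncertain counts, held 82.6% of the counts of 14HP33. Results that rest on these libraries are also given for the 4 libraries with at least 5000 genes, from 13EP12 and 13EP8 of Cohort B and 13EP5 and 15CP1 of Cohort C.

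The 10 genes together took a sizeable and similar share of 7 of the 10 libraries. In Cohort B they held 0.667% of the counts in 13EP12, 0.642% in 13EP8, 0.0421% in 14HP26, 0.0658% in 14HP31 and 0.925% in 15CP6. In Cohort C they held 1.05% in 13EP5, 0.0108% in 14HP33, 0.904% in 14HP24, 0.787% in 15CP1 and 0.675% in 15CP4. The cohorts overlapped: the shares of 3 Cohort B and 4 Cohort C monkeys lay within the range from 0.642% to 1.05%, and the shares of 14HP26, 14HP31 and 14HP33 were lower. With all MTRNR2L genes taken out of the total, the share was 0.0832% in 14HP33 and between 0.668% and 1.22% in those 7. A shallow library did not always have a low share: 15CP4, the shallowest Cohort C library with 449 counts on the 10 genes, had a share of 0.675% (95% Wilson interval 0.616 to 0.741%, counting error only), and 14HP33 had 105 of its 968423 counts on them (0.00896 to 0.0131%).

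**Figure D1:**
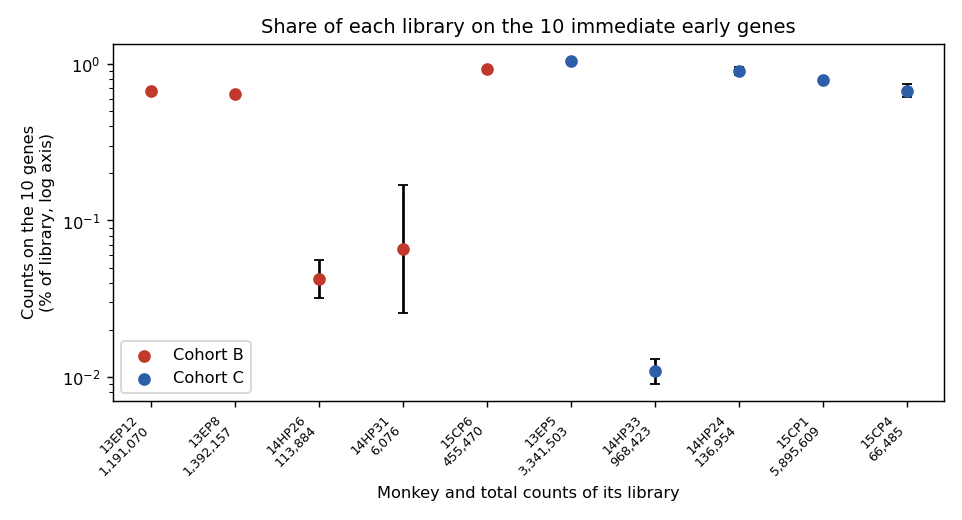
Percent of each library's counts that fell on the 10 immediate early genes (log axis), with 95% Wilson intervals for counting error, by monkey and total counts, Cohort B in red and Cohort C in blue. Monkeys 14HP26, 14HP31 and 14HP33 sit between 0.0108% and 0.0658%, and the other 7 between 0.642% and 1.05%.

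FOS encodes the AP-1 subunit c-Fos, which binds DNA only as a dimer with a JUN protein. Its counts were 1222, 2107, 0, 1 and 728 in 13EP12, 13EP8, 14HP26, 14HP31 and 15CP6 of Cohort B. In Cohort C they were 3822, 2, 259, 6883 and 229 in 13EP5, 14HP33, 14HP24, 15CP1 and 15CP4, and the cohorts are given in this order of monkeys below. As CPM, a gene's counts scaled to a common library total, FOS lay between 1026 and 3444 in the 7 libraries with more than 3 counts. This was a range of 3.36-fold, with the highest level in 15CP4. After edgeR's TMM normalization FOS ran from 1060 CPM in 13EP12 to 1611 CPM in 13EP8 in these 7, and 15CP4 was at 1430 CPM. In 14HP26 the count was 0, where 3 counts correspond to 26.3 CPM, and 14HP33 had 2.07 CPM. In 14HP31 the single count corresponds to 165 CPM, under the limit of 494 CPM that 3 counts set there. Libraries with 2 counts or fewer occurred in both cohorts. In the 4 libraries with at least 5000 genes, FOS ranked between 38 and 78 among all genes by count.

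FOSB, a close relative of FOS whose protein also needs a JUN partner, had 593, 586, 23, 0 and 389 counts in Cohort B and 2909, 4, 207, 3528 and 32 in Cohort C. It had more counts than any other of the 10 genes in 14HP26, where it reached 202 CPM. Its level ran from 421 to 871 CPM in the 4 libraries with at least 5000 genes, and was highest in the shallow library of 14HP24, at 1511 CPM.

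JUN, which encodes c-Jun, the AP-1 subunit that can also bind DNA as a pair with itself, was the member with the most counts, 28479 in all. They were 1792, 1996, 13, 0 and 1434 in Cohort B and 11429, 2, 355, 11408 and 50 in Cohort C. By count, JUN ranked 40 and 43 among all genes in 13EP12 and 13EP8 and 14 and 22 in 13EP5 and 15CP1. Its level was 1505 and 1434 CPM in that pair of Cohort B monkeys and 3420 and 1935 CPM in the Cohort C pair. Monkey 15CP6 of Cohort B, at 3148 CPM, lay within the Cohort C range.

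JUNB and JUND encode the other JUN subunits, which can form AP-1 in place of c-Jun and often temper its activity. JUNB had 922, 1249, 0, 2 and 454 counts in Cohort B and 3904, 12, 63, 7434 and 0 in Cohort C. JUND had 789, 1011, 3, 1 and 273 counts in Cohort B and 3058, 6, 119, 3732 and 37 in Cohort C. JUND was the only one of the 10 genes with a count in every library, and in the 4 libraries with at least 5000 genes it was the steadiest, from 633 to 915 CPM, a range of 1.45-fold. JUNB was at 0 in 15CP4, where 3 counts correspond to 45.1 CPM, while it lay between 774 and 1261 CPM in the 4 libraries with at least 5000 genes.

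EGR1, a zinc finger transcription factor induced through ERK signaling, was among the lowest of the 10. Its counts were 248, 66, 6, 0 and 11 in Cohort B and 263, 2, 0, 742 and 52 in Cohort C. The highest level was in 15CP4, at 782 CPM, and in the 4 libraries with at least 5000 genes it ranged 4.39-fold, from 47.4 to 208 CPM, the widest range of the 10 genes there. The ends of that range were both Cohort B monkeys, 13EP8 and 13EP12.

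NR4A1 and NR4A2 encode orphan nuclear receptors, and NR4A1 (Nur77) is widely used as a reporter of TCR signal strength. NR4A1 had 69, 93, 0, 0 and 0 counts in Cohort B and 603, 0, 0, 374 and 0 in Cohort C, so it was at 0 in 6 libraries. In 5 of these 6, all but 14HP31, a level as low as that of 13EP12, 57.9 CPM, would have given more than 3 counts. NR4A2 had 710, 381, 0, 0 and 293 counts in Cohort B and 3639, 6, 93, 3188 and 45 in Cohort C. Where both had more than 3 counts, NR4A2 exceeded NR4A1 by a ratio of counts of 10.3 in 13EP12, 4.10 in 13EP8, 6.03 in 13EP5 and 8.52 in 15CP1, not corrected for transcript length.

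DUSP1 and ZFP36 act against the response: DUSP1 is a phosphatase that switches off MAP kinases, and ZFP36 (tristetraprolin) binds AU-rich mRNAs, FOS and cytokine mRNAs among them, and speeds their decay. DUSP1 had 1026, 688, 0, 0 and 361 counts in Cohort B and 1716, 71, 59, 5341 and 0 in Cohort C. ZFP36 had 577, 758, 3, 0 and 268 in Cohort B and 3608, 0, 83, 3773 and 4 in Cohort C. In the 4 libraries with at least 5000 genes, DUSP1 lay between 494 and 906 CPM and ZFP36 between 484 and 1080 CPM. DUSP1 lay below that range at 431 CPM in 14HP24, and with 0 counts in 14HP26 and, beside 229 on FOS, in 15CP4. In 14HP31 its 0 counts had a limit of 494 CPM. In 14HP33 it was at 73.3 CPM from 71 counts beside 2 on FOS, in a library with 82.6% of its counts on MTRNR2L1. After edgeR's TMM normalization, its level in 14HP33 was 1011 CPM, within the 526 to 1108 CPM of those 4 libraries.

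**Figure D2:**
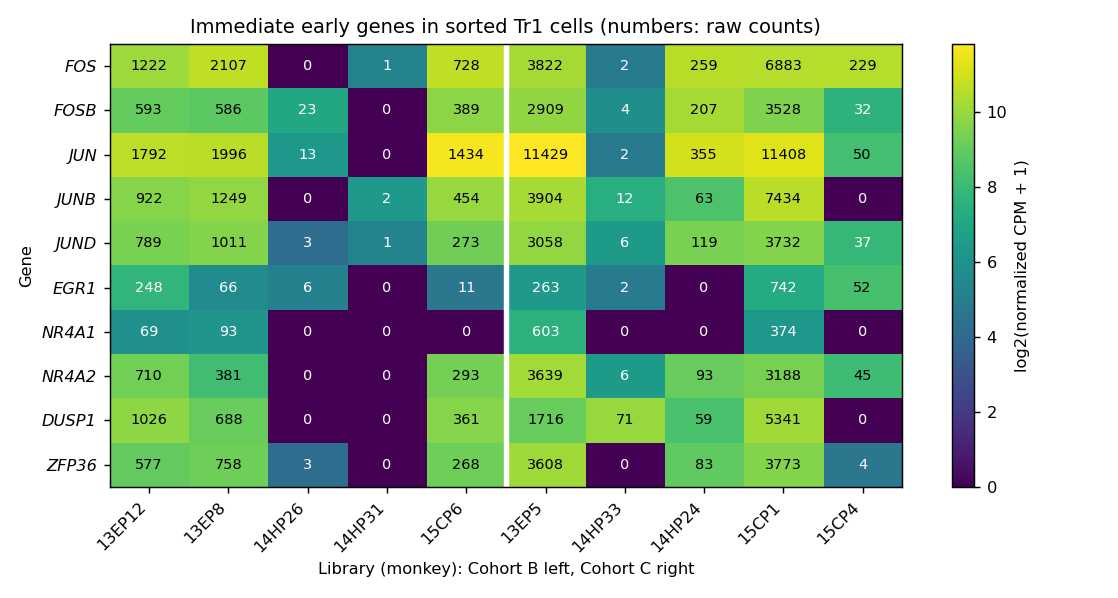
Colour gives log2(normalized CPM + 1) for each of the 10 genes (rows) in each library (columns, Cohort B left and Cohort C right), and the printed numbers are raw counts. Columns 14HP26, 14HP31 and 14HP33 are low for most genes, and NR4A1 is at 0 in 6 of the 10 columns.

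Of the 100 values, 20 were 0, 13 in Cohort B and 7 in Cohort C. For 15 of these 20, namely 8 in Cohort B and 7 in Cohort C, the limit of 3 counts lay below that gene's lowest CPM in the 4 libraries with at least 5000 genes. That lowest level would have given more than 3 counts, but only barely for DUSP1 in 14HP31 (limit 493.7, lowest level 494.2 CPM). Of 10 housekeeping genes, 2 to 8 were at 0 as well in each of the 6 libraries concerned. Of these housekeeping genes, 2 were also at 0 in 13EP12 and 1 in 13EP8. The zeros of the 10 immediate early genes are therefore not read as absence of expression.

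The share of each gene in the counts on the 10 genes gives the make-up of the signal. In the 4 libraries with at least 5000 genes, JUN gave 22.3 to 32.7% of the counts on the 10 genes, FOS 10.9 to 23.6%, JUNB 11.2 to 16.0% and EGR1 0.739 to 3.12%. In 15CP6, with 4211 such counts, JUN gave 34.1% and FOS 17.3%. In 14HP24, with 1238, JUN gave 28.7% and FOS 20.9%, within those ranges, and JUNB 5.09%, below its range. In 15CP4, FOS gave 51.0% of 449 counts and JUN 11.1%. In 14HP33, DUSP1 gave 67.6% of 105 counts (95% Wilson interval 58.2 to 75.8%), and in 14HP26, FOSB gave 47.9% of 48 counts (34.5 to 61.7%). The ratio of JUN to FOS counts was 1.47 in 13EP12, 0.947 in 13EP8 and 1.97 in 15CP6 for Cohort B. For Cohort C it was 2.99 in 13EP5, 1.37 in 14HP24, 1.66 in 15CP1 and 0.218 in 15CP4. The cohorts overlapped in this ratio, which does not depend on how libraries are scaled.

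**Figure D3:**
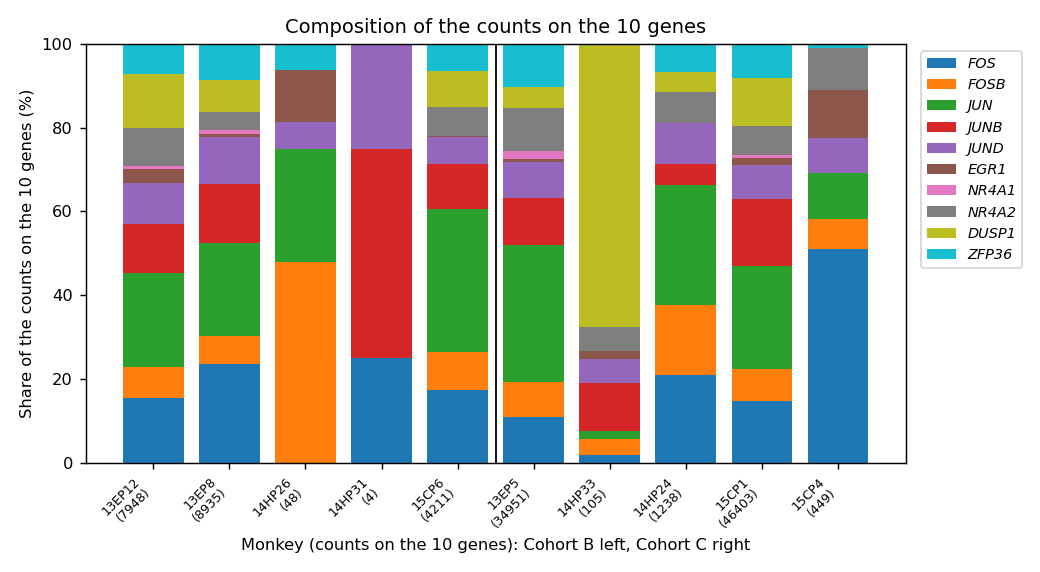
Stacked bars give the percent of the counts on the 10 genes that each gene took, by monkey, with the number of such counts in brackets (Cohort B left of the line, Cohort C right). JUN takes 22.3 to 32.7% of the bars of 13EP12, 13EP8, 13EP5 and 15CP1, while DUSP1 fills 67.6% of the bar of 14HP33 and FOS 51.0% of that of 15CP4.

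Per length, in FPKM (fragments scaled by transcript length and library depth, made by the authors with Cuffdiff), JUNB, FOS and JUN stood highest. In the 4 libraries with at least 5000 genes, JUNB was first or second of the 10 in each, FOS between 1 and 4 and JUN between 1 and 4. Median FPKM over these libraries were 797 for JUNB, 749 for FOS, 514 for JUN, 455 for JUND, 415 for DUSP1 and 410 for ZFP36. The neighbours in this order changed places between monkeys. NR4A2 (187) and FOSB (139) followed, and EGR1 (73.4) and NR4A1 (23.1) took the last places in each of the 4 libraries. The order of the genes was read within each library, as the FPKM scale differed between libraries. JUN was 7468 FPKM in 13EP5 and 599 FPKM in 15CP1, beside 3420 and 1935 CPM from 11429 and 11408 counts.

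**Figure D4:**
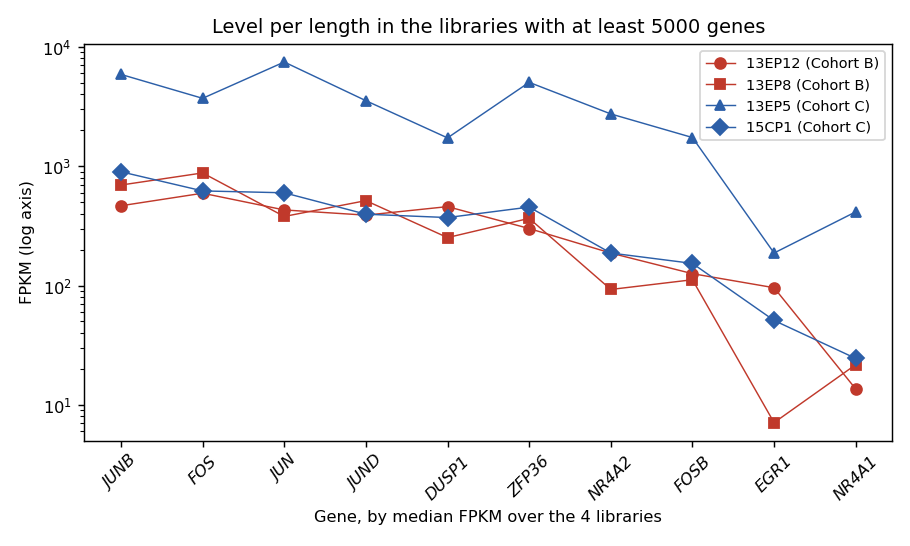
FPKM of the 10 genes (log axis) in the 4 libraries with at least 5000 genes, Cohort B in red and Cohort C in blue, with genes ordered by their median. EGR1 and NR4A1 are the lowest in all 4 lines, and the line of 13EP5 lies above the others throughout.

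Cohort C was then compared with Cohort B, which asks whether ADL infusions went with another level of these genes in Tr1 cells. None of the 10 genes was found to differ. The libraries of the cohorts overlapped for all 10 genes. Of 14165 genes compared in the same way, 0.0141% did not overlap. On the log2(normalized CPM + 1) scale, after edgeR's TMM normalization, FOS was 7.34 ± 4.67 (SD, n = 5) in Cohort B and 9.32 ± 2.49 (SD, n = 5) in Cohort C. JUN was 7.82 ± 4.83 and 9.44 ± 2.88, JUNB 7.17 ± 4.29 and 7.36 ± 4.31, and DUSP1 5.70 ± 5.21 and 7.52 ± 4.26, in the same order and units. The difference of means was largest for NR4A2, with 5.36 ± 4.91 in Cohort B and 8.63 ± 1.42 in Cohort C (two-sided exact permutation test, p = 0.278, n = 5 per cohort). For the other 9 genes the two-sided exact permutation p lay between 0.389 and 0.921, and 5 against 5 monkeys cannot give a p below 0.00794. These tests treat each monkey as 1 replicate.

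In edgeR's quasi-likelihood test over 14168 genes, the log2 fold change of Cohort C over Cohort B was 0.36 for FOS (95% interval -3.16 to 3.89), 0.39 for JUN (-3.05 to 3.84) and 0.21 for JUNB (-3.39 to 3.81). It was 0.96 for NR4A1 (-3.07 to 5.0), the largest of the 10. None of the 10 genes was called at an unadjusted p under 0.01 with a 1.5-fold change, a filter that called 6.43% of all genes tested. None had an unadjusted p under 0.05, as 20.6% of all genes did. With only 10 genes, these results cannot be read against the shares of all genes. The lowest unadjusted p of the 10 was 0.639, and every adjusted p was 1.0 (Benjamini-Hochberg, same edgeR test). By edgeR's exact test, which called 0.431% of all genes under that filter, by DESeq2 and by limma-voom, 0 of the 10 had an unadjusted p under 0.05 as well. Over the 10 genes the lower ends of the intervals lay between -3.39 and -2.88 and the upper ends between 3.81 and 5.0 on the log2 scale. Changes within the interval of each gene were not excluded by this fit.

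The fitted fold change was above 0 for all 10 genes, as for 53.5% of all genes, with a median of 0.47 beside 0.16 over all genes tested. The 10 fold changes share the same libraries and do not count as 10 observations. With library size only as the scaling, where the median of all genes was -0.11, JUNB and DUSP1 turned negative and 8 remained above 0. Without Cohort C monkey 13EP5, which had the largest share of counts on these genes, 6 of the 10 were above 0. The median of all genes was then -0.43, and 9 of the 10 lay above it. Without Cohort B monkey 13EP8 that median was 0.83, and 2 of the 10 lay above it. Without 13EP12 it was 0.67, and 6 lay above it. In the other fits without 1 library, 7 to 10 lay above the median of all genes. In the 4 libraries with at least 5000 genes, where it was 0.32, 6 did.

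With the 4 libraries of at least 5000 genes alone, the intervals narrowed and still held 0 for each of the 10 genes. The Cohort B monkeys in it, 13EP12 and 13EP8, are those for which the study's records show no rejection. It therefore holds no Cohort B monkey with recorded rejection, unlike the comparison of all 10 libraries. The log2 fold change was -0.19 for FOS (95% interval -1.03 to 0.65, edgeR's quasi-likelihood fit), 0.10 for JUND (-0.76 to 0.97) and 0.045 for DUSP1 (-0.95 to 1.04). It was 0.81 for JUN (-0.0082 to 1.63), 0.86 for NR4A2 (-0.22 to 1.94) and 0.68 for ZFP36 (-0.23 to 1.59), and the adjusted p of the 10 genes in edgeR's fit ran from 0.800 to 0.991. None of the 10 was called there, beside 0.881% of all genes, and 10 genes are too few to read against that share. With 2 monkeys per cohort an exact permutation test cannot go below 0.333.

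**Figure D5:**
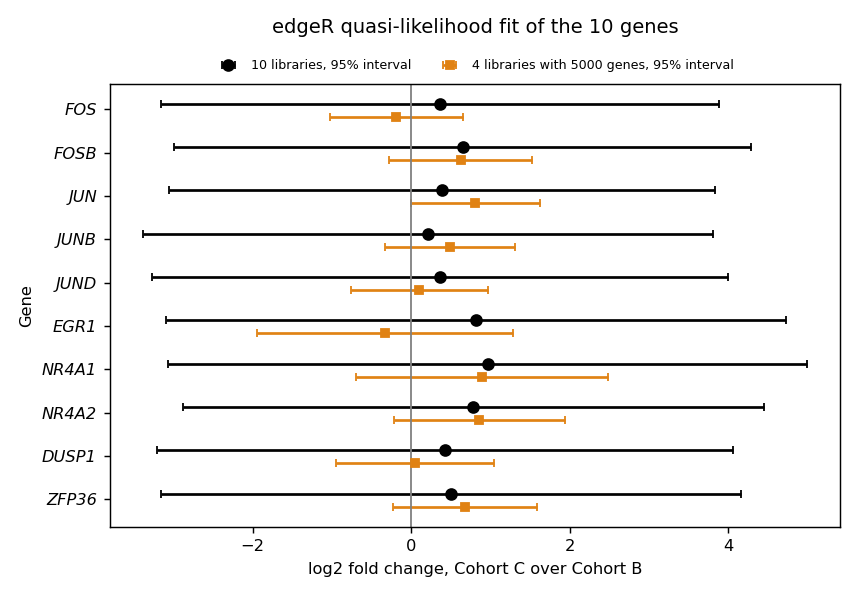
Log2 fold change of Cohort C over Cohort B for each gene, from edgeR's quasi-likelihood fit on all 10 libraries (black) and on the 4 libraries with at least 5000 genes (orange), with 95% intervals. All 20 intervals cross 0, and those of the 4 libraries are narrower.

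The labels give a sequencing index suffix for the library of 15CP6 in Cohort B and for those of 14HP33 and 15CP1 in Cohort C, 1 against 2, which allows no comparison among them. Among the 7 libraries without it, 4 of Cohort B and 3 of Cohort C, the difference of the mean log2(normalized CPM + 1) ran from -0.50 for NR4A1 to 4.75 for NR4A2 and was positive for 8 of the 10 genes. Two-sided exact permutation p values were between 0.229 and 1, and 0.0286 is the smallest possible. In limma on log2(FPKM + 1) over 10307 genes, a comparison that carries the difference in FPKM scale between libraries, 0 of the 10 genes had an unadjusted p under 0.05, beside 0.146% of all genes.

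Monocytes also express FOS, JUN, DUSP1 and ZFP36 strongly, and markers of other cells were found. Monocyte markers summed to between 0 and 1285 CPM in Cohort B and between 0 and 1279 CPM in Cohort C, with all 10 markers at 0 in 14HP26, 14HP31 and 15CP4. The share of the 10 immediate early genes was 0.675% in 15CP4, with no monocyte count at all. It was 1.05% in 13EP5, where monocyte markers gave 276 CPM, and 0.667% in 13EP12, where they gave 1285 CPM. Of the monocyte counts, the single gene VCAN gave 1104 of 1530 in 13EP12 and 184 of 922 in 13EP5. TYROBP had 41 and 328 counts, in the same order, so the markers did not all differ in the same direction. The lowest shares also went with few monocyte counts: 0.0421% in 14HP26 and 0.0658% in 14HP31, both at 0 monocyte CPM, and 0.0108% in 14HP33, at 2.07 CPM. The CD8 and NK cell markers summed to between 0 and 334 CPM in each cohort, and the B cell markers to at most 165 CPM, which was 1 count in 14HP31. Platelet markers reached 265 CPM in 13EP5 and at most 21.8 CPM elsewhere. Erythroid markers had counts in 14HP26, 15CP6 and 14HP33 alone. The part of these cells in the levels of the 10 genes was not tested beyond these values.

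Other genes of the pathway, listed apart from the 10, gave a similar picture. Of 28 tested of 30 other immediate early genes, 21 had a fold change above 0 and 7 below, beside 53.5% of all genes above 0. None was called, beside 6.43% of all genes, and 28 genes are too few to read against that share. The median log2 fold change was 0.37 beside 0.16 over all genes. CCNL1, a cyclin induced early after stimulation, lay between 971 and 1365 CPM in the 4 libraries with at least 5000 genes, and ZFP36L2, a relative of ZFP36, between 626 and 1065 CPM. TNFAIP3 (A20), a brake on NF-κB, had 778, 476, 0, 0 and 343 counts in Cohort B and 4038, 2, 102, 2707 and 6 in Cohort C. Like FOS, TNFAIP3 was at or near 0 in 14HP26, 14HP31 and 14HP33, but it had 6 counts in 15CP4, where FOS had 229. The log2 fold change was 0.32 for CCNL1, 0.45 for ZFP36L2, 0.46 for TNFAIP3 and 0.64 for ZFP36L1 (adjusted p = 1.0 each, edgeR's quasi-likelihood test).

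Among 14 other AP-1 genes, 9 had a fold change above 0 and 5 below, beside 53.5% of all genes above 0. BATF3 and BATF2, basic leucine zipper factors that dimerize with JUN proteins, were called by the unadjusted filter, BATF3 higher and BATF2 lower in Cohort C, beside 1.07% of all genes called higher and 5.36% called lower. BATF3 had 12 counts in 14HP33 and 14 in 15CP1 and none elsewhere, and BATF2 had 54 counts in 14HP26 and 2 in 13EP5 and none elsewhere. Both had an adjusted p of 0.141 in edgeR's quasi-likelihood test, and each rests on 2 libraries. MAF, MAFF, FOSL2 and ATF3 had more counts, and their log2 fold changes were 0.50, -1.20, -0.39 and 2.08 (adjusted p from 0.844 to 1.0, same edgeR test). ATF3, a stress-induced member, had 71, 1, 0, 0 and 15 counts in Cohort B and 332, 0, 0, 235 and 45 in Cohort C.

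The kinases and factors that act upstream gave 11 genes above 0 and 7 below of 18 tested, beside 53.5% of all genes above 0. None of them was called, beside 6.43% of all genes, and 18 genes are too few to read against that share. MAP3K1, a kinase above JNK, had a log2 fold change of -0.90, CREM -0.16 and ELK4, a partner of serum response factor, 0.29 (adjusted p = 1.0 each, edgeR's quasi-likelihood test). Heat shock genes, which mark proteotoxic stress, had 7 of 8 tested genes above 0 and 0 called. Their median log2 fold change was 1.06, beside 0.16 over all genes. Over all genes tested, 53.5% were above 0 and 6.43% were called, and 8 genes are too few to read 0 called against that share. HSPA1A and HSPA1B, the stress-inducible HSP70 genes, had no count in any library. These zeros are not read as absence of expression, as it is not known how reads that fit several genes were counted. HSP90AA1 had 1026, 1075, 32, 0 and 227 counts in Cohort B and 13041, 1, 35, 7660 and 0 in Cohort C, and a log2 fold change of 1.28. That of HSP90AB1 was 1.13, that of HSPA8 0.56 and that of HSPD1 -1.17 (adjusted p from 0.984 to 1.0 for these 4 genes, edgeR's quasi-likelihood test). In 15CP4 the heat shock genes had 2 counts in all (30.1 CPM) beside 449 on the 10 immediate early genes (6753 CPM). In 13EP5, the library with the highest share of the 10 genes, they had 44699 (13377 CPM) beside 34951 (10460 CPM).

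The 5 genes whose log2(normalized CPM + 1) followed the mean of the 10 most closely over the 10 libraries, among 2852 genes with a count in at least 6 libraries, were MALAT1 (Pearson's r = 0.981), TNFAIP3 (0.977), a gene listed under the date-like name 6-Sep (0.97), LRRFIP1 (0.972) and PPP1R12A (0.969). MALAT1, an abundant nuclear long noncoding RNA, had 47351, 51471, 769, 96 and 12254 counts in Cohort B and 94749, 644, 3290, 226197 and 2237 in Cohort C. All points share libraries that differ widely in depth, so these values are a description of which libraries were rich in both.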

How the data were processed

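The authors sequenced 50 bp paired-end reads from sorted macaque Tr1 cells and mapped them to the human genome hg38 with HISAT2 2.0.2. They deposited raw counts per gene, whose counting options are not given in the sources used here, and FPKM values made with Cuffdiff 2.2.1. Reads that differ from the human sequence may have been lost, unequally between genes. Columns were matched to monkeys, and monkeys to cohorts, by the labels. Gene coordinates were not used here. Rows under 2 repeated, date-like names were kept in the fits and not reported.

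For counts, edgeR 4.0.16 (R 4.3.3) was run with TMM scaling and its quasi-likelihood test on 14168 genes, those whose counts summed to 10 or more. For FPKM, limma 3.58.1 was run on log2(FPKM + 1) of 10307 genes whose mean was 1 or more. Each of the 10 genes was also tested by permuting cohort labels exactly (two-sided, scipy 1.17.1) on log2(normalized CPM + 1). CPM without "normalized" is scaled by the total of the deposited counts alone. A level of 3 counts was taken as the floor; floors and intervals of shares cover counting error only. On simulated data the count fit recovered most changes at a low spread but none, after adjustment, at the spread of these libraries. The 10 genes, the other lists and the tests were chosen with earlier results of these data known. From each other list of pathway genes, the 4 genes detected in the most libraries and any called gene were named, except 1 gene that is not reported here. The comparison of libraries with at least 5000 genes, and that of libraries without an index suffix, were added after seeing the data. Alternatives covered DESeq2 1.42.0, limma-voom, edgeR's exact test, other scalings and filters, a replicate block, an index covariate and leaving out each library.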

Additional observations from a re-analysis of the deposited data

Results flagged for a closer look

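In 22 groups of 5 libraries (the 10 genes and their summed share, in each cohort), 3 held a library far from the rest of its cohort by Dixon's criterion, which chance meets in about 1 of 20 groups. FOS in Cohort C was low in monkey 14HP33, at a log2(normalized CPM + 1) of 4.88 beside 10.22 in the nearest library, from 2 counts. FOSB in Cohort B was 0 in 14HP31, beside 7.09 in the nearest library, and the limit of 3 counts there is 494 CPM. DUSP1 in Cohort C was 0 in 15CP4, beside 8.42 in the nearest library.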

How the results depend on the processing

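No alternative called any of the 10 genes it tested or gave one an unadjusted p under 0.05 in a count test. NR4A1 was not tested with filterByExpr. The number of all genes called moved from 911 to 1525 with RLE normalization, 10 with filterByExpr, 61 with edgeR's exact test, 22 with DESeq2, 67 with limma-voom, 98 with the index covariate and 117 with the libraries of at least 5000 genes, and from 76 (without 13EP5) to 695 without 1 library. It was 143 without 15CP1 and 515 to 597 without 13EP8, 14HP26, 15CP6, 14HP33 or 14HP24. At an adjusted p under 0.05 there were 0 genes, but 2 with DESeq2, 1 with the libraries of at least 5000 genes and 0 to 1 without 1 library (1 without 13EP5, 15CP1 or 15CP4). The replicate block called 0 genes. Same-numbered libraries come from different monkeys, and the correlation of their deviations from the cohort means ran from -0.431 to 0.375, so the numbers do not pair them. Only 1 of the 10 libraries, that of Cohort C replicate 1, correlated best with its own number.

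The log2 fold change turned negative for FOS (-0.19) and EGR1 (-0.33) in the libraries of at least 5000 genes, for JUNB with library size only (-0.056) and filterByExpr (-0.11), for DUSP1 with library size only (-0.18) and the index covariate (-0.10), and for NR4A1 with limma-voom (-0.041). Without 1 library it stayed above 0 for FOS, FOSB, JUND, NR4A2 and DUSP1 and ran from -0.077 to 1.0 for JUN, -0.38 to 0.53 for JUNB, -3.8e-04 to 2.11 for EGR1, -0.63 to 1.64 for NR4A1 and -0.10 to 0.82 for ZFP36. The difference of the mean log2(normalized CPM + 1) turned to -0.0027 for FOS in the libraries of at least 5000 genes and to -0.94 for JUNB with library size only. Without 1 library it ran from -0.050 to 2.39 for FOSB, -0.34 to 2.76 for JUN, -1.61 to 2.03 for JUNB, -0.45 to 2.06 for EGR1, -0.85 to 1.29 for NR4A1 and -1.23 to 2.02 for ZFP36. The difference of the mean log2(FPKM + 1), whose scale differed between libraries, for ZFP36 was -0.24 with a pseudocount of 0.1, and without 1 library the differences ran from -1.86 to 1.35 for JUNB, -0.55 to 2.39 for JUND, -0.51 to 1.71 for NR4A1, -0.56 to 2.13 for DUSP1 and -1.28 to 1.80 for ZFP36. The cause of these turns was not tested.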
